A study of Mus musculus with 18 samples.

Results

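The genes of the LIF receptor, JAK and STAT pathway described here are 9: the receptor genes Lifr, Il6st and Cntfr, the kinase genes Jak1 and Jak2, the transcription factor genes Stat3 and Stat5b, and the inhibitor genes Socs2 and Socs3. Each gene was followed through all probe sets that the annotation of the array pairs with 1 of these symbols alone, which gave 29 of the 45101 probe sets of the table. Of these, 19 had a mean signal of at least 100 in some group and were tested, with at least 1 probe set for each gene, and 10 were dimmer, with no group mean over 84.8. Both tested Stat3 probe sets rose at 6 and 24 h of TSA, Lifr and Socs2 rose at 24 h of BMP2, and 1 of 2 tested Jak2 probe sets fell at 6 h of TSA.

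All cultures were neurospheres, floating colonies of neural precursors, grown for 7 days from the lateral and medial ganglionic eminences of E15.5 mouse embryos, then dissociated and plated with 1% fetal calf serum to differentiate. The ganglionic eminence is the ventral part of the embryonic forebrain from which the striatum arises. In all 6 groups the medium was changed 2.5 days after plating. According to the methods of the study, this change withdrew the growth factor bFGF. Whether treatment began before or after the change is stated differently in the sources used here. The part of this withdrawal in differences between the times was not tested. Cells received 50 nM trichostatin A (TSA), which inhibits histone deacetylases, or 10 ng/ml of recombinant BMP2, a ligand of the BMP receptors, and controls received neither. RNA taken after 6 h was measured on 2 control, 2 BMP2 and 2 TSA arrays, and RNA taken after 24 h on 6 control, 2 BMP2 and 4 TSA arrays. The strain is C57BL/6 J according to the methods of the study, no genotype was altered, and how many embryos went into a culture is not stated in the sources used here. Since no label names separate cultures or litters, p-values cover the spread between these arrays, which may be technical.

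LIF, CNTF and related cytokines bind their own receptor chains, of which the chain encoded by Lifr carries LIF and the chain encoded by Cntfr carries CNTF, and these pair with the shared chain gp130, encoded by Il6st. Kinases of the JAK family bound to the receptors then phosphorylate STAT proteins, which enter the nucleus and bind DNA. In neural precursors the pathway is known for the induction of astrocyte genes, where STAT3 acts with Smad proteins of the BMP pathway through shared coactivators. SOCS proteins are targets of STATs and inhibit the receptors in a feedback loop. The arrays measure RNA, and phosphorylation was not measured on them.

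Promoters of Socs3 and Lifr are shown because Socs3 was the member whose promoter held the letters to which STAT dimers bind, TTCNNNGAA, and because Lifr, which rose with BMP2, held the letters GGCGCC, bound by Smad1 or Smad5 with Smad4, at 2 places. Promoters were taken from RefSeq for the mouse build GRCm38.p6 and cover the 250 bases before a start site, read 5′ to 3′ on the strand of the gene. An entry existed for 8 of the 9 genes, with 15 start sites in all, and Socs2 had none. Capitals mark matches to either motif. Both motifs read the same on both strands, and they do not overlap here.
Socs3, chr11:117969367-117969616, minus strand: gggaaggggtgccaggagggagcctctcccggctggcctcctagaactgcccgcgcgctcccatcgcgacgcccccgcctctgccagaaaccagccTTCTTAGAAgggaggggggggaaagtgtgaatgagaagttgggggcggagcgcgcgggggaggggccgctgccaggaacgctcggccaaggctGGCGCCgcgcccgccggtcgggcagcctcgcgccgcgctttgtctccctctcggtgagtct
Lifr, chr15:7129322-7129571, plus strand: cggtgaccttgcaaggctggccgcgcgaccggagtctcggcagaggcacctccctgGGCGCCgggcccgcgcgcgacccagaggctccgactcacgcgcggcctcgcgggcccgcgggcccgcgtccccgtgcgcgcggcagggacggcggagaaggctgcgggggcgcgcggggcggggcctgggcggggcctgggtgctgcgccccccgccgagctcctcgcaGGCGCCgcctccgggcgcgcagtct
The STAT letters of Socs3 are TTCTTAGAA, beginning 154 bases before the start site, and a GGCGCC follows in the same promoter at 61 bases before it. Among all 32851 promoters of the table, 7.02% held TTCNNNGAA in this window and 9.59% held GGCGCC. Among the members, Cntfr and Jak1 also held GGCGCC, and no other member promoter held TTCNNNGAA. Cntfr, Jak1 and Socs3 were not called as risen with BMP2. The promoter of another Lifr start site, chr15:7140292-7140541, held neither motif. These matches describe the sequence and were not tested for binding.

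Signals below are linear values per probe set after quantile normalization. Log2 fold changes were taken after 32 was added to each signal, which makes the changes of dim probe sets smaller, and are given with their standard error (SE) and the p-value adjusted over all 19439 tested probe sets. A probe set is said to have risen or fallen where the adjusted p of limma was under 0.05. Different probe sets of a gene are compared only in their changes, not in their levels. In a culture, fewer cells of a type and less RNA in each cell cannot be told apart.

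Several arrays stood apart before any treatment was considered. Controls 5 and 6 and both BMP2 arrays of 24 h had a high signal of Xist, an RNA made from the inactive X chromosome, of 703 to 2086, against 18.4 to 75.5 on the other 14 arrays. All TSA arrays had a low Xist signal. Results at 24 h were therefore also computed with the controls of the same Xist signal alone, which are controls 5 and 6 for BMP2 and controls 1 to 4 for TSA. Microglia and blood markers were under 100 in every group for 9 of 9 genes, and so were 5 of 6 endothelial, 4 of 6 mural and 2 of 7 ganglionic eminence markers. Astrocyte, oligodendrocyte lineage, neuronal and precursor markers were present. Markers of the oligodendrocyte lineage moved with both treatments: 9 of 12 fell at 24 h of BMP2 and 9 of 12 at 24 h of TSA, and their summed signal was 38390 to 52859 in controls of 24 h, 14796 to 15170 with BMP2 and 17765 to 28766 with TSA. Of 10 astrocyte markers, 6 fell at 24 h of BMP2 and 3 at 24 h of TSA, and their summed signal was 37142 to 47731 in controls, 30392 to 34042 with BMP2 and 38049 to 45822 with TSA. The part of these cells in the changes of the pathway genes was not tested. Marker counts and sums used all 6 controls of 24 h and were not computed with controls of the same Xist signal. Of the astrocyte markers, Gfap and S100b are given with those controls below, where neither was called as changed by BMP2.

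Among the 19 tested members, 0 were called at 6 h of BMP2, where 1.47% of all tested probe sets were called and 3 members had an unadjusted p under 0.05. At 24 h of BMP2, 4 rose and 0 fell, where 16.5% of all tested probe sets were called and 8.42% rose. At 6 h of TSA, 3 rose and 1 fell, where 22.5% of all were called, 12.1% rose and 10.4% fell. After 24 h of TSA 9 rose and 0 fell, where 35.4% of all were called and 16.6% rose. The median log2 fold change of the members was 0.33 at 6 h of BMP2, -0.03 at 24 h of BMP2, 0.16 at 6 h of TSA and 0.36 at 24 h of TSA, beside medians of 0.00, 0.00, 0.01 and -0.02 over all tested probe sets. Of the 19 members, Lifr 1425107_a_at reached a mean of 100 at 24 h of BMP2 alone and so entered the test through the group where it is high. Without it 3 of 18 rose at 24 h of BMP2 and 8 of 18 at 24 h of TSA. The calls of all 19 at 24 h of BMP2 belonged to 2 genes and those at 24 h of TSA to 5. These 4 comparisons share the controls of their time.

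**Figure D1:**
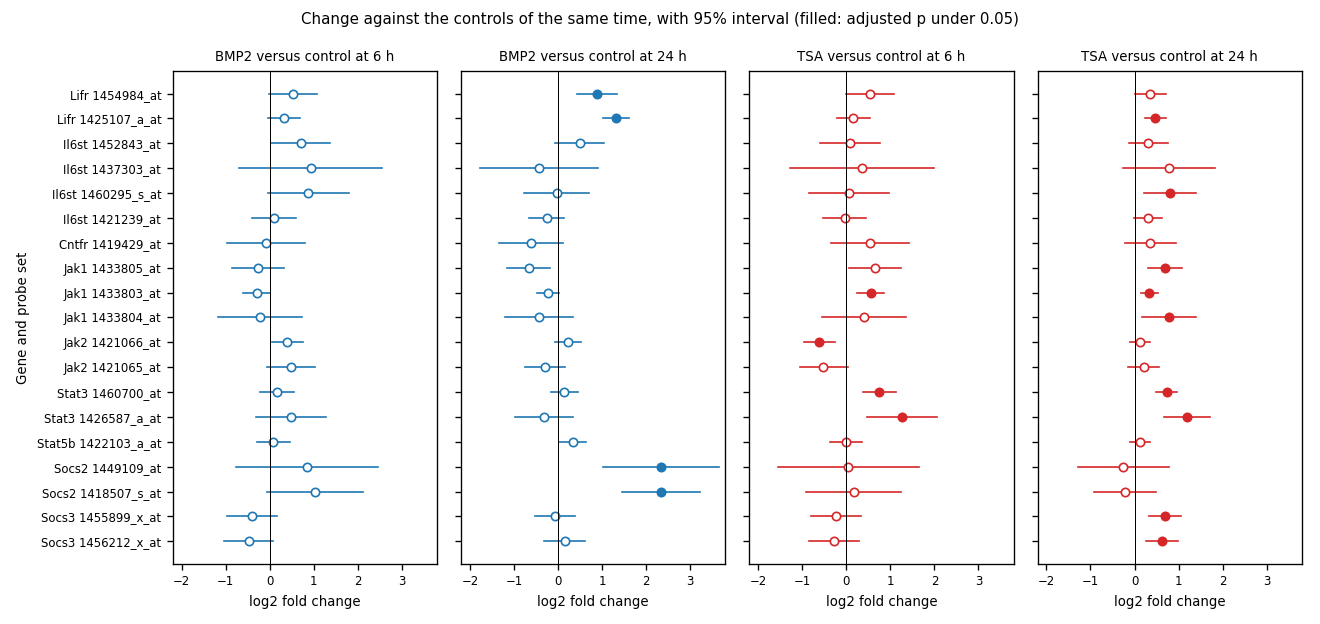
Log2 fold change of each of the 19 tested probe sets against the controls of the same time (horizontal axis) with its 95% interval, in 4 comparisons; filled points have an adjusted p under 0.05. With BMP2 the filled points are the 4 probe sets of Lifr and Socs2 at 24 h, and with TSA the Stat3 probe sets are filled at both times.

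Lifr, the receptor chain for LIF, rose with BMP2. Its bright probe set 1454984_at gave signals of 2466 and 2829 in the BMP2 arrays of 24 h, against 906, 1537 and 1881 as lowest, median and highest of the 6 controls. Both BMP2 arrays lay above every control. The log2 fold change was 0.88 (SE 0.21, adjusted p = 0.00861). With controls 5 and 6 alone it was 0.57 with an adjusted p of 0.0589, and leaving out either BMP2 array gave 0.0559 or 0.127. The dim probe set 1425107_a_at, which entered the test through these BMP2 arrays and is given as a description, gave 88.6 and 126 against 18.1 to 26.8 in the controls, a log2 fold change of 1.31 (SE 0.14). With all probe sets tested and no filter on signal, its adjusted p was 2.3e-06. At 6 h of BMP2 the bright probe set gave 1827 and 1594 beside controls of 1434 and 958, a difference that did not pass the test (log2 0.53, adjusted p = 0.847).

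The mean of Lifr at 24 h of TSA lay between those of controls and BMP2. The bright probe set gave 2031, 1881, 1604 and 1804, which overlapped with the controls, with a log2 fold change of 0.36 (SE 0.17, adjusted p = 0.108). With the replicate number as a block, which pairs TSA and control arrays of equal number, the change was 0.51 (adjusted p = 0.00275), and with controls 1 to 4 alone 0.51 (adjusted p = 0.0236). The dim probe set gave 49.6, 40.8, 40.0 and 50.3, above every control and below the minimum of 100 (log2 0.47, SE 0.11, adjusted p = 0.00280 with no filter). At 6 h neither was called, with TSA signals of 1721 and 1716 for the bright one. Over the 6 groups the mean of 1454984_at was highest at 24 h of BMP2 (2648), followed by TSA 24 h (1830), TSA 6 h (1718), BMP2 6 h (1710), controls of 24 h (1456) and controls of 6 h (1196), and apart from the first, each group overlapped with the next.

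Il6st encodes gp130, the chain shared by the family, and its 4 tested probe sets differed in their changes. At 24 h of TSA 1460295_s_at rose, with 319, 409, 523 and 376 against 100, 258 and 341 as lowest, median and highest control (log2 0.81, SE 0.28, adjusted p = 0.0321). The lowest TSA array lay below the highest control, and controls 5 and 6, at 119 and 100, were the lowest. With the number as a block the change was 0.41 (adjusted p = 0.00369), and with controls 1 to 4 alone 0.41 (adjusted p = 0.0990). The call was also lost when control 5 or 6, or TSA array 2, 3 or 4, was left out, with adjusted p-values up to 0.0981. The brightest probe set, 1452843_at, was not called, with 1418, 2052, 2195 and 1661 at 24 h of TSA and 2264 and 1832 at 24 h of BMP2 against controls of 878, 1482 and 2175 (log2 0.31 and 0.49). Controls 5 and 6, with the high Xist signal of the BMP2 arrays, gave 1312 and 878. For 1437303_at the BMP2 arrays of 24 h gave 172 and 231 against 119 and 81.6 in controls 5 and 6. For 1460295_s_at they gave 207 and 210 against 119 and 100, and for 1421239_at 181 and 179 against 168 and 264. With all 6 controls these changes were -0.43, -0.03 and -0.26 and were not called. Probe set 1421239_at passed with the number as a block at 24 h of TSA (log2 0.27, adjusted p = 0.0444) and not without it (0.30, adjusted p = 0.132).

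At 6 h of BMP2 the same 4 probe sets had log2 changes of 0.70, 0.93, 0.87 and 0.10 with adjusted p-values of 0.745 to 1.00. For 1452843_at the BMP2 arrays gave 1439 and 2053 and the controls 947 and 1163, so both BMP2 arrays lay above both controls, as they did for 1437303_at and 1460295_s_at.

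Cntfr encodes the receptor chain for CNTF and had a lower mean at 24 h than at 6 h in controls, BMP2 and TSA alike. Its tested probe set 1419429_at gave 599 and 860 in controls of 6 h and 152, 411 and 516 as lowest, median and highest in controls of 24 h. Every control of 24 h lay below every control of 6 h, and the log2 difference of -1.06 (SE 0.34) did not pass the test (adjusted p = 0.0857). TSA arrays were above both controls at 6 h, with 960 and 1171, and overlapped with them at 24 h, with 357, 368, 531 and 480. With BMP2 the 24 h arrays gave 205 and 202, above the lowest control and below the median (log2 -0.61, adjusted p = 0.234), and with controls 5 and 6 alone the change was -0.91 (adjusted p = 0.0398). At 24 h of TSA the change was 0.36 (adjusted p = 0.322), or 0.51 with the number as a block (adjusted p = 0.0264).

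**Figure D2:**
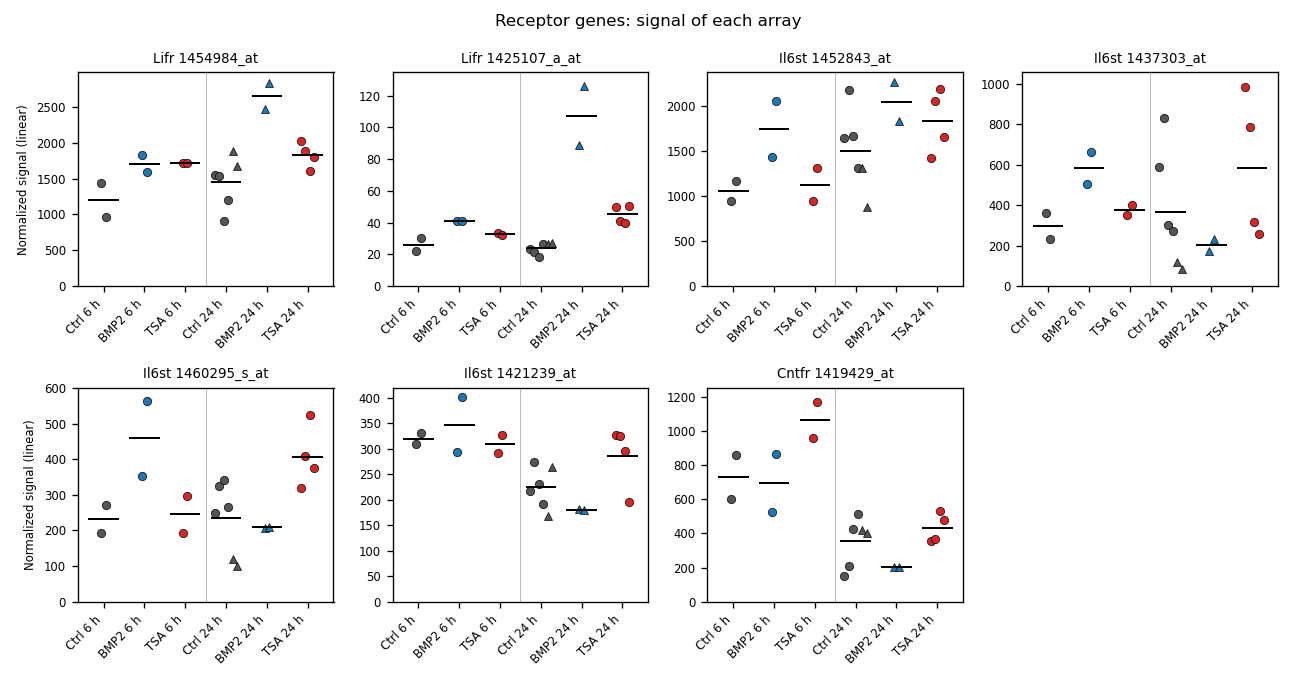
Signal of each array (vertical axis, linear normalized signal) for the tested probe sets of Lifr, Il6st and Cntfr in the 6 groups; lines are group means and triangles are the 4 arrays with a high Xist signal. Lifr is highest in both BMP2 arrays of 24 h, and Cntfr is higher at 6 h than at 24 h.

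Jak1, a kinase bound to gp130 and to its partner chains, was higher with TSA than in controls. At 24 h all 3 probe sets rose: 1433805_at with a log2 fold change of 0.69 (SE 0.18, adjusted p = 0.00794), 1433803_at with 0.33 (SE 0.09, adjusted p = 0.0103) and 1433804_at with 0.78 (SE 0.29, adjusted p = 0.0457). The TSA arrays of 1433803_at, at 806, 788, 713 and 864, lay above all controls, whose lowest, median and highest were 531, 644 and 679. For 1433805_at TSA gave 1556, 1610, 973 and 1136 against 638, 690 and 1131, and array 3 lay within the controls. With median scaling in place of quantile normalization the change of 1433803_at was 0.21 (adjusted p = 0.112). That of 1433804_at, whose TSA signals of 72.7 to 162 overlapped with control signals of 18.5 to 114, was 0.51 with the number as a block (adjusted p = 0.0980), and it was lost under 6 of the 10 left-out arrays, controls 1, 2, 5 and 6 and TSA 1 and 3, with adjusted p-values up to 0.143.

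At 6 h of TSA 1433803_at rose, with 901 and 988 above the controls of 622 and 645 (log2 0.55, SE 0.14, adjusted p = 0.0113). Leaving out control 1, control 2 or TSA array 2 gave adjusted p-values of 0.0796, 0.0548 and 0.108. The TSA signals of 1433805_at, 1380 and 1585, were also above the controls of 926 and 930 (log2 0.65, adjusted p = 0.109). With BMP2 no Jak1 probe set was called, and at 24 h 1433805_at gave 449 and 529, below every control (log2 -0.66, SE 0.23, adjusted p = 0.0597, and -0.38 with controls 5 and 6 alone).

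Jak2, the kinase that also serves the growth hormone and erythropoietin receptors, fell at 6 h of TSA. Probe set 1421066_at gave 535 and 472 with TSA and 825 and 747 in controls, a log2 fold change of -0.61 (SE 0.17, adjusted p = 0.0149), with no overlap. Without control 1 the adjusted p was 0.114 and without TSA array 2 it was 0.130. Probe set 1421065_at gave 197 and 165 against 289 and 255, also with no overlap (log2 -0.52, adjusted p = 0.173). At 24 h the TSA arrays of 1421066_at, 881, 996, 898 and 755, overlapped with controls of 651 to 974 (log2 0.13, adjusted p = 0.378). The effect of TSA differed between the times by 0.74 on the log2 scale (SE 0.20, adjusted p = 0.0274), and this was the 1 member of 19 for which that difference was called, against 9.85% of all probe sets in either direction and 4.32% in this one. Leaving out any 1 of the 4 arrays of 6 h ended that call, with adjusted p-values of 0.0680 to 0.150. BMP2 signals at 6 h, 1086 and 1007, were above both controls (log2 0.40, adjusted p = 0.584).

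Stat3, the transcription factor that LIF and CNTF activate, rose with TSA at both times. Probe set 1460700_at gave 1181 and 1151 at 6 h of TSA against 711 and 653 in controls (log2 0.75, SE 0.18, adjusted p = 0.00712). At 24 h it gave 1439, 1324, 1691 and 1699 against 688, 956 and 1026 as lowest, median and highest control (log2 0.73, SE 0.11, adjusted p = 1.7e-04). All TSA arrays lay above all controls of their time. At 24 h the call held in 12 other settings of the limma fit and all 10 fits with 1 array left out, with log2 changes of 0.65 to 0.80 in the latter, while the fold of 1.66 is under the ratio of 2 that the study asked for, and with controls 1 to 4 alone the change was 0.64 (adjusted p = 3.2e-04). At 6 h leaving out control 2 gave an adjusted p of 0.0617.

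The second Stat3 probe set, 1426587_a_at, gave 1576 and 1606 at 6 h of TSA against 598 and 697 in controls (log2 1.26, SE 0.38, adjusted p = 0.0253), and 2258, 1520, 1173 and 1051 at 24 h against 370, 587 and 927 (log2 1.19, SE 0.24, adjusted p = 0.00141). Here too no TSA array overlapped with the controls. At 6 h the call was lost under each of the 4 arrays left out, with adjusted p-values of 0.0786 to 0.141, and at 24 h it held under each of the 10, with log2 changes of 0.98 to 1.34 and 0.93 with controls 1 to 4 alone. The effect of TSA on Stat3 did not pass the test of a difference between the times, which was -0.02 on the log2 scale (95% interval -0.47 to 0.43) for 1460700_at and -0.07 (-1.02 to 0.89) for 1426587_a_at. With BMP2 neither probe set was called. The change of 1460700_at was 0.16 (-0.22 to 0.54) at 6 h and 0.14 (-0.17 to 0.45) at 24 h, with BMP2 signals of 856 and 683, and of 1058 and 956. For 1426587_a_at the change was 0.48 (-0.32 to 1.28) at 6 h, with BMP2 signals of 934 and 891, above both controls. At 24 h it was -0.32 (-0.97 to 0.34), with 391 and 598.

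Stat5b, which carries the signal of growth hormone and prolactin, was not called in any comparison. Its tested probe set 1422103_a_at had group means between 241 and 310, the smallest range of the 9 genes (0.33 on the log2 scale). BMP2 at 24 h gave 320 and 299, above all controls of 200 to 276 (log2 0.33, SE 0.14, adjusted p = 0.120).

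**Figure D3:**
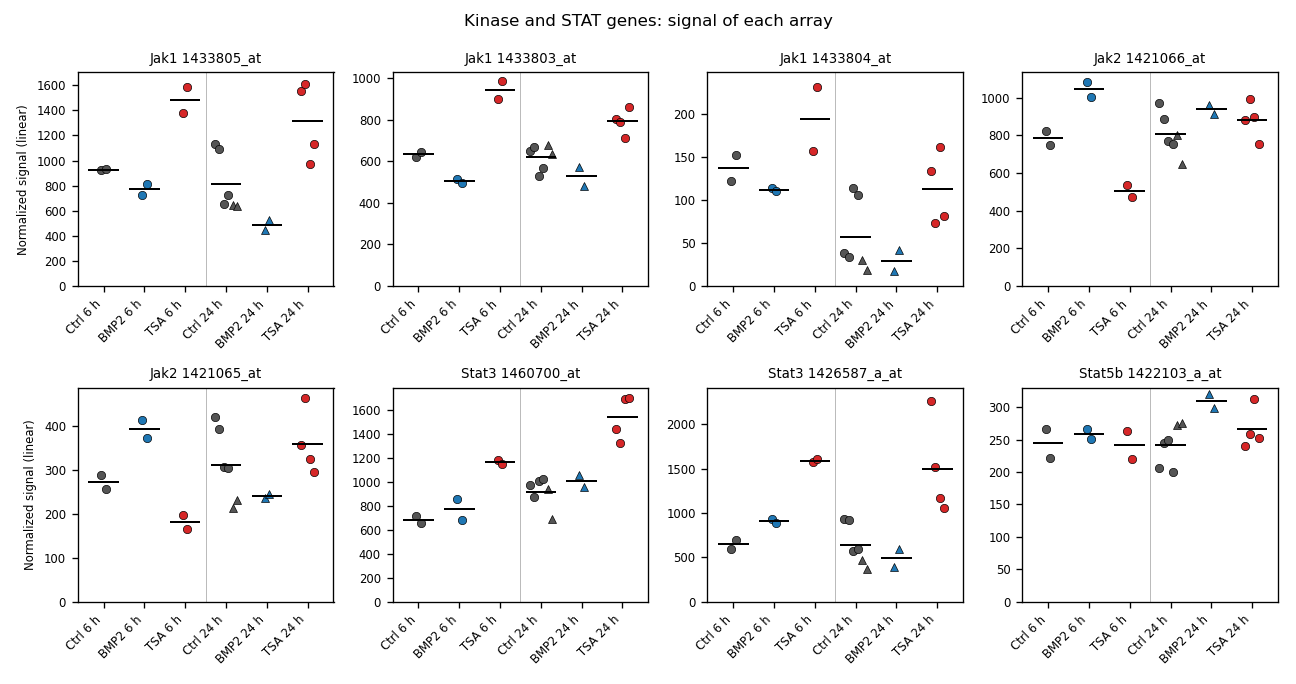
Signal of each array (vertical axis, linear normalized signal) for the tested probe sets of Jak1, Jak2, Stat3 and Stat5b in the 6 groups; lines are group means and triangles are the 4 arrays with a high Xist signal. Both Stat3 probe sets are higher with TSA than in controls at either time, and Jak2 is lowest at 6 h of TSA.

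Socs2, an inhibitor of growth hormone signalling, had the largest change of the members. At 24 h of BMP2 probe set 1418507_s_at gave 659 and 745 against 41.0, 110 and 274 as lowest, median and highest control (log2 2.33, SE 0.42, adjusted p = 0.00104). Probe set 1449109_at gave 723 and 989 against 31.0, 165 and 341 (log2 2.34, SE 0.62, adjusted p = 0.0164). Both BMP2 arrays lay above all 6 controls, and the highest of these was control 5, which had a high Xist signal as the BMP2 arrays did. With controls 5 and 6 alone the changes were 1.70 (adjusted p = 0.0259) and 1.60 (adjusted p = 0.181). Leaving out BMP2 array 1 or 2 gave adjusted p-values of 0.0948 and 0.166 for 1449109_at, while 1418507_s_at was called without any 1 of the 8 arrays, with at most 0.0262.

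At 6 h of BMP2 the arrays of 1418507_s_at gave 341 and 195, above the controls of 132 and 92.9, and the log2 change of 1.02 (95% interval -0.06 to 2.11) did not pass the test (adjusted p = 0.880). The difference of the BMP2 effect between the times was 1.31 (-0.09 to 2.71, adjusted p = 0.634). TSA did not change Socs2 past the threshold at either time, and at 24 h its arrays, 74.8, 40.4, 175 and 124, overlapped with the controls (log2 -0.21, 95% interval -0.91 to 0.49). TSA and control arrays numbered 1 and 2 were lower than those numbered 3 and 4 for this gene at 24 h. Other members split by these numbers too, in TSA and control arrays alike. Cntfr 1419429_at was lower in arrays 1 and 2, and Stat3 1426587_a_at, Jak1 1433805_at and Il6st 1437303_at were higher in them. The other 4 probe sets of Socs2 were too dim to test, and the highest of them, 1442586_at, gave 64.6 and 51.6 at 24 h of BMP2 and 29.5 to 49.6 in the controls.

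Socs3, the main feedback inhibitor of gp130, was dim and rose at 24 h of TSA. Probe set 1455899_x_at gave 299, 224, 345 and 173 against 111, 146 and 206 as lowest, median and highest control (log2 0.69, SE 0.17, adjusted p = 0.00551). Probe set 1456212_x_at gave 200, 126, 257 and 157 against 80.7, 94.0 and 160 (log2 0.63, SE 0.17, adjusted p = 0.00966). TSA array 4 of the first and arrays 2 and 4 of the second lay within the controls, whose highest values were those of controls 5 and 6. With controls 1 to 4 alone the changes were 0.82 (adjusted p = 0.00215) and 0.81 (adjusted p = 0.00124). Another Socs3 probe set, 1416576_at, was too dim to test, and its signals overlapped, with 72.1 to 96.8 at 24 h of TSA and 42.1 to 82.1 in controls. At 6 h the means of all groups were lower, and the TSA arrays of the first, 77.0 and 59.1, lay below the controls of 88.5 and 81.4 (log2 -0.23, adjusted p = 0.596). The difference of the TSA effect between the times was 0.92 and 0.91, with adjusted p-values of 0.0777 and 0.0808. BMP2 signals at 6 h, 55.2 and 57.5, were also below both controls (log2 -0.40, adjusted p = 1.00).

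**Figure D4:**
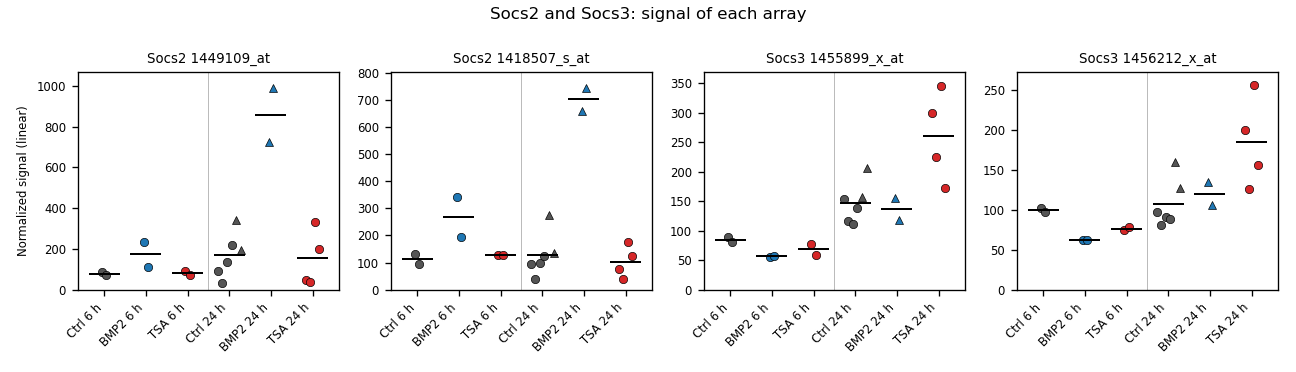
Signal of each array (vertical axis, linear normalized signal) for the tested probe sets of Socs2 and Socs3 in the 6 groups; lines are group means and triangles are the 4 arrays with a high Xist signal. Socs2 is highest in both BMP2 arrays of 24 h, at 659 to 989, and Socs3 has its highest means at 24 h of TSA.

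Directly compared at 6 h, TSA and BMP2 differed for 5 of 19 members, 3 higher and 2 lower with TSA (24.3% of all probe sets called, 12.8% higher and 11.5% lower). Jak1 was higher with TSA, by 0.92 for 1433805_at (adjusted p = 0.0256) and 0.86 for 1433803_at (adjusted p = 5.2e-04), and so was Stat3 1460700_at, by 0.59 (adjusted p = 0.0242). Jak2 was lower with TSA in both probe sets, by -1.01 (adjusted p = 4.7e-04) for 1421066_at and -0.99 (adjusted p = 0.0108) for 1421065_at, with no overlap between the arrays. Leaving out each of the 4 arrays ended the call of Jak1 1433805_at (adjusted p up to 0.157), leaving out BMP2 array 2, TSA array 1 or TSA array 2 that of Stat3 (up to 0.215), and leaving out BMP2 array 1 or TSA array 2 that of Jak2 1421065_at (up to 0.0945).

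At 24 h 11 of 19 members differed between TSA and BMP2 (38.0% of all called), with 8 higher and 3 lower with TSA (18.5% and 19.5% of all). Lower were both Socs2 probe sets, by -2.54 (adjusted p = 4.6e-04) and -2.60 (adjusted p = 0.00622), and Lifr 1425107_a_at, by -0.84 (adjusted p = 5.8e-04), which entered the test through the BMP2 arrays. Without this Lifr probe set 8 of 18 were higher and 2 lower. Higher were both Stat3 probe sets (0.59 and 1.51), all 3 of Jak1 (0.56 to 1.35), Socs3 1455899_x_at (0.76), Cntfr (0.97) and Il6st 1421239_at (0.56). For all 11 the arrays of the treatments did not overlap. This also held for Lifr 1454984_at, Il6st 1437303_at and 1460295_s_at and Jak2 1421065_at, which were not called. The share of all probe sets without overlap was not computed, so this is given as a description and adds nothing to the calls. Without BMP2 array 2 the calls of Socs2 1449109_at, Stat3 1460700_at, Jak1 1433803_at, Socs3, Cntfr and Il6st were lost, and without BMP2 array 1 those of Stat3 1426587_a_at, Jak1 1433804_at, Cntfr and Il6st. Of the TSA arrays, leaving out array 1 or 2 ended the call of Il6st, array 3 those of Jak1 1433804_at, Cntfr and Il6st, and array 4 that of Cntfr.

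All BMP2 arrays of 24 h had a high and all TSA arrays a low Xist signal, so within these 6 arrays the treatment and the Xist signal cannot be told apart. With a term for the Xist signal, fitted over the controls too, 4 members were called, 3 of which were also called without it. Over all tested probe sets 7396 were called without the term and 2506 with it. The difference between TSA and BMP2 was then 0.33 (adjusted p = 0.319) for Stat3 1460700_at, 0.74 (adjusted p = 0.238) for Stat3 1426587_a_at and -1.59 (adjusted p = 0.0641) for Socs2 1418507_s_at. Lifr 1425107_a_at, Jak1 1433803_at and Socs3 1455899_x_at were called there too, with -0.72, 0.68 and 1.16, the first having entered the test through the BMP2 arrays.

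Between the times, 0 members passed in the difference of the BMP2 effect (0.628% of all called, 2 members with an unadjusted p under 0.05) and 0 between the controls of 24 and 6 h (4.39% of all called, 5 members with an unadjusted p under 0.05). The dim Lifr probe set came nearest in the former, with an effect larger at 24 h by 0.98 (SE 0.22, adjusted p = 0.0634). It entered the test through the BMP2 arrays of 24 h, where it is high, so this is given as a description.

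The study asked for a ratio of means over 2, a difference over 100 and a confidence over 90%, taken here as an unadjusted limma p under 0.1, and fewer of the 29 members met these criteria. Socs2 1418507_s_at met them at 6 h of BMP2 (0.893% of all probe sets met them) and both tested Socs2 probe sets at 24 h (3.60%). Stat3 1426587_a_at was the 1 member at 6 h of TSA (4.14%) and at 24 h of TSA (3.47%). Between TSA and BMP2 both tested Jak2 probe sets met them at 6 h (4.60%), and 6 members of Il6st, Cntfr, Jak1, Stat3 and Socs2 at 24 h (6.67%). Between the controls of both times it was Cntfr alone (0.802%).

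**Figure D5:**
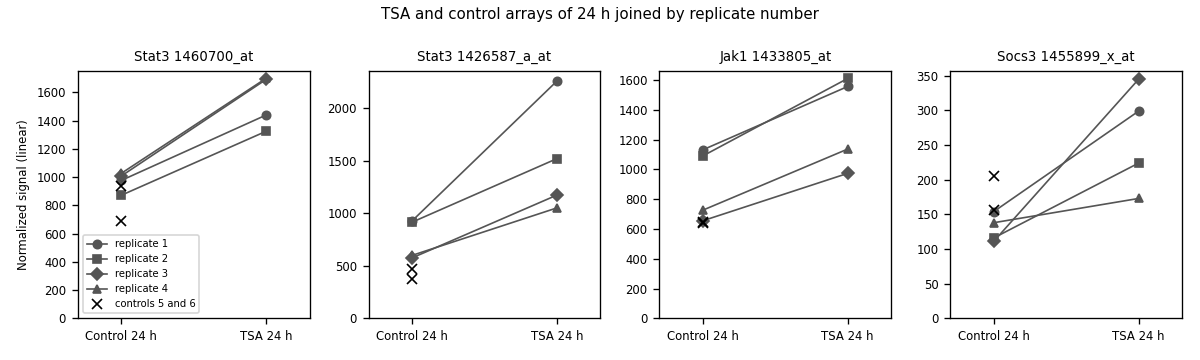
TSA and control arrays of 24 h joined by their replicate number for Stat3, Jak1 and Socs3 (vertical axis, linear normalized signal), with controls 5 and 6, which have no TSA partner, as crosses. Every line rises from control to TSA in the 4 panels.

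The other genes of the pathway were counted with their brightest tested probe set each, over 10588 genes, of which 18.7% rose and 20.2% fell at 24 h of TSA, 14.5% rose and 11.8% fell at 6 h of TSA, 9.97% rose and 7.75% fell at 24 h of BMP2, and 1.15% rose and 0.642% fell at 6 h of BMP2. Of 10 ligands of the family 6 had a probe set of that symbol alone, and 1 of these was bright enough to test, cardiotrophin (Ctf1), which rose at 24 h of TSA from 98.4 to 151 (log2 0.51, adjusted p = 0.0151). LIF and CNTF themselves were not tested here.

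Of the other cytokine receptors, 5 of 8 rose and 0 fell at 24 h of TSA, and the counts were the same with controls 1 to 4 alone. Osmr, the receptor chain for oncostatin M that also pairs with gp130, gave 368 ± 178 (SD, n = 4) against 104 ± 64.8 (SD, n = 6), a log2 change of 1.62 (adjusted p = 0.00353). Il10rb, a chain of the IL-10 receptor, changed by 1.12, but it reached a mean of 100 in this group alone and so had to be high there to be tested. Ghr, the growth hormone receptor, changed by 1.02, and Ifngr1 and Ifnar1, chains of the interferon receptors, by 0.77 and 0.33. At 24 h of BMP2 Osmr fell to 8.96 ± 0.667 (SD, n = 2, log2 -1.55, adjusted p = 0.0362), but control signals on the arrays with high Xist were 7.68 and 82.7, and with these controls alone the change was -0.72 (adjusted p = 0.472). At 6 h Osmr gave 6.61 ± 2.79 in controls (SD, n = 2) and passed the test with neither treatment. Ifngr1 also rose at 24 h of BMP2 (0.55), where 0 of the 8 receptors were called with controls 5 and 6 alone, and at 6 h of TSA (0.88), where Ifnar2 fell (-0.96).

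Of 7 tested coactivators and Smads that act with STAT3, 6 fell at 6 h of TSA and 3 at 24 h, and 0 rose. The acetyltransferases Kat2b (log2 -1.73, 123 against 480), Crebbp (-1.32, 386 against 1008) and Ep300, which encodes p300 (-1.06, 463 against 1000), led at 6 h, with adjusted p-values of 0.00149, 0.00286 and 0.00249, and Ncoa1, Smad1 and Smad5 fell by 0.43, 0.70 and 0.53. At 24 h Kat2b (-0.68), Crebbp (-0.63) and Smad1 (-0.49) were below the controls past the threshold. Smad4 was not called at either time (-0.21 and -0.04). With BMP2 Ncoa1 rose at 24 h, by 0.51.

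Target genes of STATs moved in both directions. After 6 h of TSA 6 of 15 fell and 0 rose, among them the cell cycle gene Ccnd1 (log2 -2.46, adjusted p = 0.00160), the astrocyte and oligodendrocyte gene S100b (-1.93) and Myc (-1.81). By 24 h of TSA 4 were higher than in controls, Cebpb (1.41), Cebpd (1.13), Irf1 (0.49) and Vim (0.39), and 4 lower, S100b (-2.46), the kinase gene Pim3 (-2.07), Myc (-1.06) and Hif1a (-0.65), and with controls 1 to 4 alone the counts were the same. Gfap, the astrocyte filament gene, gave 3969 ± 486 (SD, n = 4) at 24 h of TSA against 1680 ± 1142 (SD, n = 6) and was not called (log2 1.78, adjusted p = 0.0754), with 0.79 (adjusted p = 0.242) against controls 1 to 4 alone. With BMP2 it gave 547 ± 572 (SD, n = 2), and its change turned from -1.49 to 0.49 with controls 5 and 6 alone (adjusted p = 0.295 and 0.841). With BMP2, 2 targets rose at 24 h, Pim1 (0.80) and Bcl2l1 (0.46), and 3 fell, S100b (-1.67), Myc (-1.43) and Hif1a (-0.46). Pim1 reached a mean of 100 at 24 h of BMP2 alone, and so had to be high there to be tested. With controls 5 and 6 alone Myc fell (-1.82, adjusted p = 0.00258) and Bcl2l1 and Vim rose (0.57 and 0.33, adjusted p = 0.0196 and 0.0240), while S100b and Pim1 were not called (adjusted p = 0.0596 and 0.292).

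Of 16 other inhibitors and adaptors, 4 fell and 0 rose at 24 h of TSA, the inhibitor genes Socs5 (log2 -0.61), Socs6 (-0.46) and Pias3 (-0.76), which encodes an inhibitor of STAT3, and the phosphatase gene Ptpn2 (-0.58). Socs3 rose at this time. At 24 h of BMP2 Pias2 rose (0.45), with 0 of 16 called against controls 5 and 6 alone, and at 6 h of TSA the adaptor gene Grb2 rose (0.65) and Ptpn2 fell (-0.64). The other kinases and STATs were mostly dim: of 7 genes 2 were tested, and of these Stat2 rose at 24 h of TSA from 49.9 to 71.3 (log2 0.34, adjusted p = 0.0375), with 0 of 2 called against controls 1 to 4 alone. With BMP2 at 6 h 0 genes of these lists were called, where few of all genes were.

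The genes whose log2 signals followed a member most closely over the 18 arrays were named for the 3 members with the largest range of group means. For Socs2 they were Ints3, Cdkn1b and Lzts1 (Pearson r of 0.89, 0.88 and 0.87), for Cntfr Sharpin, Ubap2 and Sgta (0.90, 0.89 and 0.88), and for Socs3 Hikeshi, Eci2 and Slc41a2 (0.94, 0.91 and 0.91). The arrays share groups, times and Xist signal, so these values describe likeness alone.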

How the data were processed

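The arrays were Affymetrix mouse expression arrays, 18 in all. For each probe set the deposited value is an intensity on a linear scale. The submitters' processing notes name MAS5 (version not given), whereas the methods of the study name dChip with quantile normalization, and which of these made the values is unclear. Deposited medians were 35.4 to 41.6 per array. The number of arrays limits the precision. Correlations within groups were 0.964 to 0.994, with at most 0.641% identical values.

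Signals were quantile-normalized, 64 control probe sets were left out, 32 was added and log2 taken. With limma 3.58.1 in R 4.3.3, 19439 probe sets whose highest group mean reached 100 entered 1 model of the 6 groups (lmFit, then eBayes with a variance trend). Benjamini-Hochberg adjustment was made separately in each of 9 comparisons. The steps were tested on simulated data. The annotation pairs 34958 probe sets with 1 symbol, 932 with several and 9211 with none. Other pathway genes were named where they were called with an absolute log2 change of at least 1, or belonged to a count of few; Gfap and Smad4 were chosen after their values were seen.

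Residuals were used to check if arrays of 1 number belong together. TSA and control arrays of 24 h with numbers 1 to 4 correlated at 0.41, 0.57, 0.44 and 0.28. TSA arrays 1 to 3 correlated most with the control of their number, and TSA array 4 with another control. They were taken as paired in the block setting, while the main fit had no block. At 24 h of TSA the main fit called 6878 of all tested probe sets and the block 8986. BMP2 and control arrays of 24 h gave 0.00 and -0.13 and were not taken as paired. Alternatives covered normalization, pseudocount, filter, variance trend, samples, pairing, the Xist signal, the criteria of the study and each array left out. The members, lists and alternatives were chosen with earlier results of these data known. Protein sequences were not used here.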

Additional observations from a re-analysis of the deposited data

Results flagged for a closer look

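The effect of TSA on Jak2 probe set 1421066_at differed between the times, which was found by testing the difference itself in the limma model. TSA minus control was -0.61 at 6 h and 0.13 at 24 h on the log2 scale, a difference of 0.74 (SE 0.20, adjusted p = 0.0274). The difference of the other tested probe set, 1421065_at, was 0.72 (SE 0.31, adjusted p = 0.150). Each 6 h group held 2 arrays, and leaving out any 1 of these 4 arrays gave adjusted p-values of 0.0680 to 0.150 for 1421066_at. The call also ended with no normalization (0.67, adjusted p = 0.0632), median scaling (0.56, 0.121), no filter (0.74, 0.0544) and only the groups compared (0.74, 0.0563). In the 24 h groups of 4 and 6 arrays, 38 sets of member signals were checked for a single outlying array, and 0 were found.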

How the results depend on the processing

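For the 34 changes called, 370 values were computed under other settings of the limma fit, the criteria of the study not included, and 332 stayed past the threshold, 38 did not and 0 turned in direction. With 1 array left out 184 of 238 stayed past the threshold, 54 did not and 0 turned.

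Members called moved by over 1.5 times as follows. With the replicate number as a block, 1 was called at BMP2 6 h, 11 at BMP2 24 h, 7 at TSA 6 h, 10 for TSA versus BMP2 at 6 h, 9 for the difference of the BMP2 effect, 4 for that of the TSA effect and 6 between the controls, where the number was taken across the times. Over all tested probe sets this block gave 686, 9084, 8006, 8242, 4037 and 5043 in the same order, the controls not included. The main fit gave 286, 3214, 4378, 4724, 122 and 1915, so calls rose over the whole table and not in the members alone. BMP2 and control arrays of 24 h are not shown to be paired, and 2 pairs at 6 h do not settle it. With a block within time and Xist signal, chosen after seeing the data, the counts were 2 at BMP2 6 h, 9 at BMP2 24 h, 7 at TSA 6 h, 10 for TSA versus BMP2 at 6 h and 4 for the difference of the TSA effect. Over all tested probe sets that block gave 834, 3413, 8210, 8355 and 5292 in the same order. With a term for the Xist signal the members called were 4 for TSA versus BMP2 at 24 h, 3 for the difference of the TSA effect and 2 between the controls, and with 24 h controls of the same Xist signal 3 for the difference of the TSA effect. Over all tested probe sets the term gave 2506 for TSA versus BMP2 at 24 h and 2509 for the difference of the TSA effect. That difference gave 0 with no normalization, median scaling, no filter or only the groups compared, and that of BMP2 gave 1 with 64 added, no filter or no trend. TSA versus BMP2 at 6 h gave 9 with only the groups compared. By the criteria of the study 1 was called at BMP2 6 h, 2 at BMP2 24 h, 1 at TSA 6 h, 1 at TSA 24 h, 2 and 6 for TSA versus BMP2 at 6 and 24 h, and 1 between the controls; they cannot be applied to the differences of effects. The cause of these differences was not tested. Blocking changed no call at 24 h of TSA other than those given in the report.

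With 1 array left out, the members called ranged from 0 to 0 at BMP2 6 h, from 2 to 5 at BMP2 24 h (2 without either BMP2 array), from 1 to 3 at TSA 6 h (lowest without control 1, control 2 or TSA 2), from 7 to 9 at TSA 24 h, from 2 to 3 for TSA versus BMP2 at 6 h (lowest without TSA 2), from 5 to 11 at 24 h (lowest without BMP2 array 2), from 0 to 0 and from 0 to 2 for the differences of the BMP2 and TSA effects, and from 0 to 1 between the controls (1 without control 3 or 6 of 24 h). The TSA difference was 0 without each array of 6 h. Groups of 2 arrays limit what could be detected at 6 h and with BMP2, and probe sets with no group mean of 100 were not tested.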
